A study of Mus musculus with 20 samples.

Results

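The genes described here encode 10 chains of collagens that build beaded filaments, hexagonal networks, fibril surfaces or anchoring fibrils. They were chosen by name from the collagen family, by a rule that uses no measured value but with earlier results of these data known, and are Col6a1, Col6a2, Col6a3, Col8a1, Col8a2, Col10a1, Col12a1, Col14a1, Col16a1 and Col7a1. All 10 were among the 51826 genes in the table, and all 10 were among the 20407 genes that reached at least 5 counts in at least 5 libraries.

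The libraries measured poly-A RNA of primary renal myofibroblasts, the contractile, matrix-secreting cells that grow out of minced mouse kidney. WWP2 is an E3 ubiquitin ligase, and the comparison asks how its loss changes the transcriptome of these cells with and without the profibrotic cytokine TGFβ1. The 4 groups, all of strain C57BL/6J and with 5 libraries each, were WT untreated, WT with TGFβ1, WWP2-/- untreated and WWP2-/- with TGFβ1. The WWP2-/- mouse line carries the deletion in all cell types, so the deletion was not made in culture, and its WT controls were littermates. The study reports that WWP2-/- cells lack the full-length and N isoforms of WWP2. The cells were sequenced at passage 2. The labels gave no dose or time for TGFβ1, and the study's legends for treated myofibroblasts give 5 ng/µl for 72 hours.

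Collagen VI is assembled from 3 chains into tetramers that join end to end as beaded filaments around cells. Collagens VIII and X are short-chain collagens that form hexagonal lattices, the former in vessel walls and remodelling tissue, the latter in hypertrophic cartilage. Collagens XII, XIV and XVI belong to the FACIT group, which sit on the surface of collagen I and II fibrils instead of forming fibrils of their own, and collagen VII forms the anchoring fibrils beneath epithelial basement membranes.

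Totals were between 47520759 and 73063697 counts per library. Wwp2 was between 49.99 and 59.85 CPM (counts scaled to the normalized library total) in the 10 WT libraries and between 17.0 and 22.7 CPM in the 10 WWP2-/- libraries, so the genotype labels held while part of the transcript was still counted. Xist, the RNA of the inactive X chromosome, was above 1 CPM in 4 of 5 untreated WT, 4 of 5 TGFβ1-treated WT, 2 of 5 untreated WWP2-/- and 1 of 5 TGFβ1-treated WWP2-/- libraries. The 2 WT libraries below 1 CPM were WT replicate 4 and TGFβ1-treated WT replicate 3, so genotype and Xist moved together in most libraries. Acta2, the smooth muscle actin that marks myofibroblasts, was at least 1016 CPM in 18 libraries. It was 38.9 CPM in WWP2-/- replicate 3 and 50.4 CPM in TGFβ1-treated WWP2-/- replicate 1. Of 10 fibroblast markers, Vim was at least 985 CPM and Pdgfrb at least 104 CPM in every library. Prrx1 and Fbln1 were above 1 CPM in all 20 libraries, Thy1 in 19 and Twist1 in 18. Pdgfra was above 1 CPM in 13 libraries, and Lum, Fap and S100a4 in 10 each. Counts of members called between genotypes are also given without the 2 WT libraries below 1 CPM of Xist. They are given likewise without the 2 WWP2-/- libraries low in Acta2, which were not left out together in other comparisons.

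Sequences upstream of 4 members are shown. Col8a1 and Col8a2 encode the 2 chains of collagen VIII and differed in size of change, Col6a3 varied most of the collagen VI chains, and Col10a1 had a fitted value above 0 that did not pass the test and changed sign without 1 library. They are the bases before the annotated start in the RefSeq table on GRCm38.p6, written 5′ to 3′ on the gene's strand. Capitals mark matches on either strand to CAGAC (a Smad-binding motif), GGGCGG (the GC box) or TATAAA (the TATA box).
Col6a3, chr1:90843972-90844221, minus strand: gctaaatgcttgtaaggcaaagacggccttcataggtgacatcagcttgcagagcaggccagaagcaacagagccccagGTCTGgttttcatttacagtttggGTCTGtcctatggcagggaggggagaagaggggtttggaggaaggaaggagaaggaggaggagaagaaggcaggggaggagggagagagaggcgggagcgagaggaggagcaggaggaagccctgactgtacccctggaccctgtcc
Col8a1, chr16:57754738-57754987, minus strand: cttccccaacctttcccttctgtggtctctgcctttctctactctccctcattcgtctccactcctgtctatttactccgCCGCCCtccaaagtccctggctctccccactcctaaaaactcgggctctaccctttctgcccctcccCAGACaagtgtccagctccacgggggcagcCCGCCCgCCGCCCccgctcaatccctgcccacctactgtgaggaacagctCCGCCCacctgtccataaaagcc
Col8a2, chr4:126286544-126286792, plus strand: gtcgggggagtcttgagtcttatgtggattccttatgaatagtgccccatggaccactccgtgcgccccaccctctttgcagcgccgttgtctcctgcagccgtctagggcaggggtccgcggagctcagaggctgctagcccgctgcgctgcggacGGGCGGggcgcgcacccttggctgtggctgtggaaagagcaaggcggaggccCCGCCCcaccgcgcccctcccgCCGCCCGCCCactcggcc
Col10a1, chr10:34389731-34389980, plus strand: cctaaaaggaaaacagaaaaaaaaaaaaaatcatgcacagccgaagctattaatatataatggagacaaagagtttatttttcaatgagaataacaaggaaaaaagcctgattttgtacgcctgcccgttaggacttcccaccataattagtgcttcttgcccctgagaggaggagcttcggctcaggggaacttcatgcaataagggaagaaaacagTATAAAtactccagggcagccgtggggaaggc
The Col8a1 and Col8a2 windows each held 4 GC boxes, a motif found in 32.7% of 32851 windows of 250 bases, and their GC contents were 60.8% and 69.9%. CAGAC, found in 42.2% of windows, matched 2 times upstream of Col6a3, 171 and 147 bases before the start, and 1 time upstream of Col8a1. It had no match upstream of Col8a2 or Col10a1. The Col10a1 window had a GC content of 41.6% and a TATA box 32 bases before the start, a motif in 12.4% of windows. Among the other members with a window, TGANTCA (the AP-1 motif, in 6.75% of windows) matched 1 time upstream of Col6a1, and GGAATG (the TEAD motif, in 12.6%) 1 time upstream of Col6a2. GC boxes matched there too, 3 and 1 times in the 2 windows of Col6a2 and 1 time each for Col16a1 and Col7a1. CAGAC matched 1 time upstream of Col7a1 and 1 time in the second window of Col6a2. CAGATG (a Twist-type E-box, in 14.4%) matched in no member's window. Such matches describe letters and not binding.

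In untreated WT cells, Col12a1 and Col8a1 had by far the most transcript per length. Median levels in CPM per kb of exon were 263.6 for Col12a1, 150.1 for Col8a1, 25.7 for Col6a1, 15.1 for Col16a1, 15.0 for Col14a1, 5.40 for Col8a2, 3.46 for Col6a2, 2.10 for Col6a3, 1.38 for Col7a1 and 0.664 for Col10a1. Neighbours in this order overlapped in range in every case, and WT replicate 4 was the lowest of its group in 8 of the 10 genes. In untreated WWP2-/- cells Col8a1 came first at 44.6 CPM per kb, ahead of Col12a1 at 26.2, and Col8a2 came last at 0.0740. With TGFβ1, Col14a1 had rank 3 of 10 in WT cells at 41.1 CPM per kb and rank 7 in WWP2-/- cells at 0.952.

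**Figure D1:**
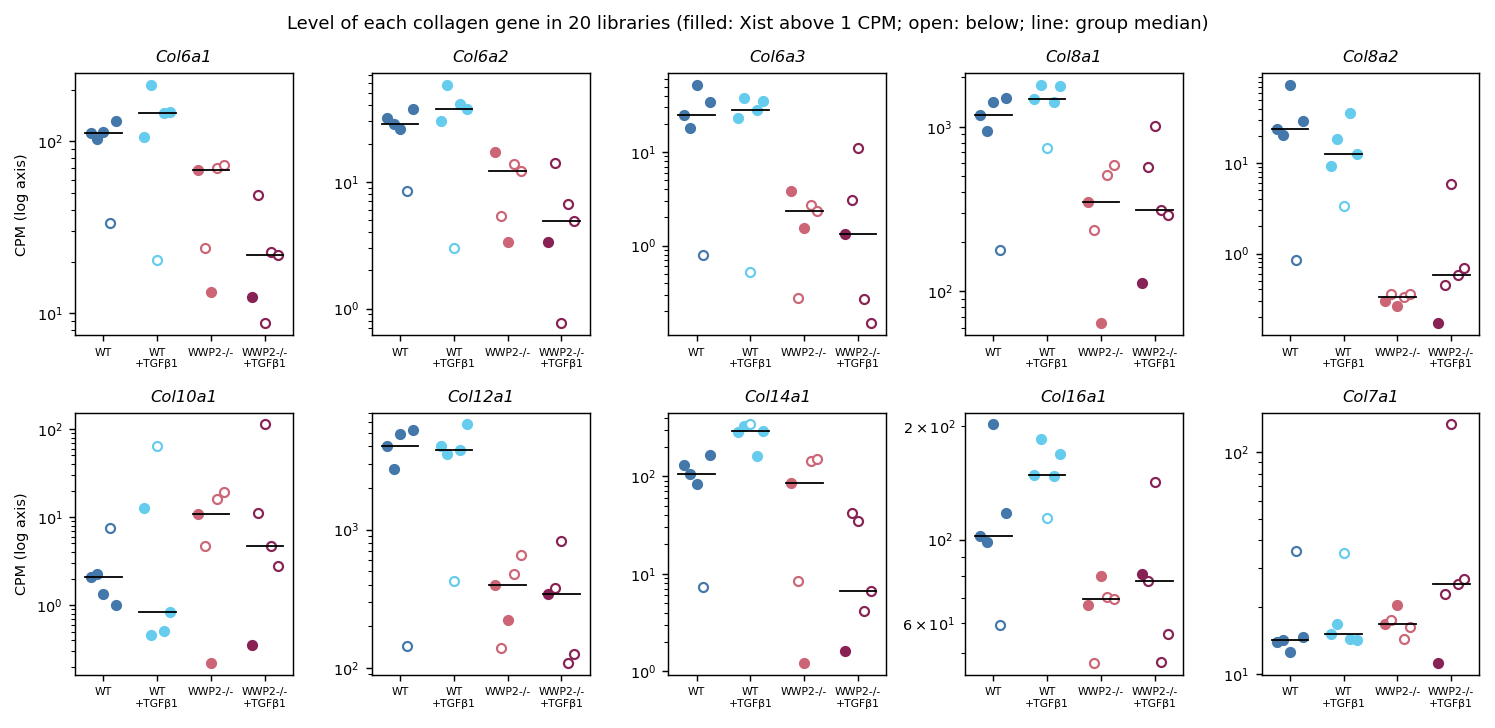
CPM of each of the 10 genes on a log axis in the 4 groups, with 1 point per library, filled where Xist was above 1 CPM and open where it was below, and a line at the group median. For Col14a1, every TGFβ1-treated WT library was above every TGFβ1-treated WWP2-/- library, and for Col8a2 every untreated WT library was above every untreated WWP2-/- library.

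With TGFβ1, 5 of the 10 collagen genes were lower in WWP2-/- than in WT myofibroblasts and none was higher. The 5 were Col6a1 and Col6a2 of the beaded filaments, Col8a2 of the networks, and the FACIT collagens Col12a1 and Col14a1. Across all 20407 genes, 6.07% passed the same test and 3.96% passed it as lower. The median log2 fold change was -2.49 over the 10 members and 0.05 over all genes tested. Without TGFβ1, Col8a2 was the 1 member that passed, again lower in WWP2-/- cells, where 0.725% of all genes passed and 0.622% passed as lower, and the medians were -1.17 and 0.08. Because these are bulk libraries, fewer cells that make a collagen and less of its RNA per cell cannot be told apart.

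**Figure D2:**
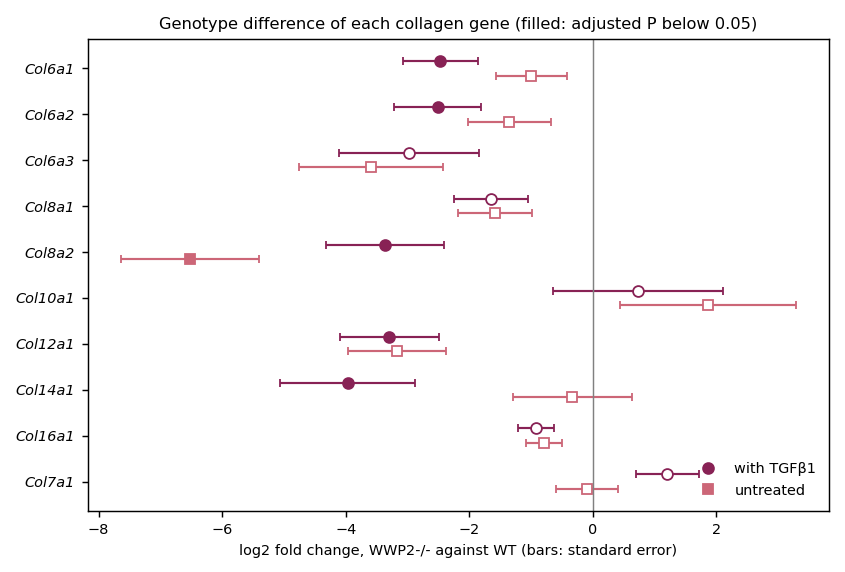
Fitted log2 fold change of WWP2-/- against WT for each gene, with TGFβ1 (circles) and untreated (squares), with bars of 1 standard error and filled symbols where the adjusted P was below 0.05. The 5 filled circles lie between -2.47 and -3.97, and the filled square, Col8a2, at -6.52.

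Col6a1 and Col6a2, whose products join that of Col6a3 in the collagen VI monomer, fell together. Col6a1 was at 107, 213, 20.5, 146 and 148 CPM in the TGFβ1-treated WT libraries, replicates 1 to 5. In TGFβ1-treated WWP2-/- cells it was at 12.5, 48.9, 8.74, 22.8 and 21.9 CPM. Apart from replicate 3, the WT libraries lay above all 5 WWP2-/- libraries. The mean was 127 ± 70.6 CPM against 23.0 ± 15.7 (SD, n = 5), a log2 fold change of -2.47 ± 0.60 (SE) with an adjusted P of 0.0235. Col6a2 was at 29.9, 57.8, 3.03, 41.3 and 37.2 CPM in the same WT group. In the WWP2-/- group it was at 3.33, 13.9, 0.767, 6.68 and 4.90 CPM. WT replicate 3 was again the 1 WT library inside the WWP2-/- range, and the log2 fold change was -2.51 ± 0.70 with an adjusted P of 0.0420. In untreated cells the differences were smaller, at -0.99 ± 0.57 for Col6a1 (adjusted P = 0.424) and -1.35 ± 0.68 for Col6a2 (adjusted P = 0.355). The untreated WWP2-/- libraries had 68.5, 23.9, 13.3, 70.2 and 73.1 CPM of Col6a1 against 113, 103, 114, 33.6 and 132 in WT.

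Col6a3 encodes the longest collagen VI chain, from which the fragment endotrophin is cut. It was at 23.0, 37.4, 0.519, 28.4 and 35.3 CPM in TGFβ1-treated WT libraries. In TGFβ1-treated WWP2-/- libraries it was at 1.33, 3.06, 11.1, 0.270 and 0.148 CPM. A single library in each group stood away from its group, replicate 3 in both. The difference of -2.97 ± 1.14 did not pass (adjusted P = 0.118), nor did that of -3.60 ± 1.17 in untreated cells (adjusted P = 0.169), where WT libraries had 25.1, 18.3, 51.8, 0.792 and 34.6 CPM and WWP2-/- libraries had 3.86, 0.273, 1.55, 2.73 and 2.36. Outside WT replicate 4, each untreated WT library was above each untreated WWP2-/- library.

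The chains of collagen VI were also compared within libraries, as ratios of counts per kb, which do not depend on the library's depth. Per kb, Col6a1 exceeded Col6a2 by a median of 6.80 times in untreated WT and 8.43 times in untreated WWP2-/- libraries. Lengths were all annotated exon bases of a gene, 4380 for Col6a1 and 8326 for Col6a2. They set the size of a ratio but not its difference between groups. The difference of 0.292 on the log2 scale had an exact permutation P of 0.0317 (two-sided), and 0.158 after adjustment over 20 tests of 5 ratios. Col6a1 exceeded Col6a3 by a median of 12.3 times in untreated WT and 70.3 times in untreated WWP2-/- libraries, a log2 difference of 2.04 with an exact permutation P of 0.0714 (adjusted P = 0.286). Of all pairs of members, Col6a1 and Col6a2 had the most similar profiles over the 20 libraries, with a root mean square difference of 0.402 between their centred log2 CPM, followed by Col6a3 and Col12a1 at 0.903.

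In untreated cells Col8a2 had the largest log2 fold change between genotypes of the 10 genes. Its product forms the collagen VIII network of Descemet's membrane and of vessel walls together with that of Col8a1. In untreated WT cells Col8a2 was at 24.2, 20.5, 73.4, 0.854 and 29.3 CPM. In untreated WWP2-/- cells it was at 0.299, 0.359, 0.262, 0.332 and 0.356 CPM, between 13 and 25 counts per library. The groups did not overlap, and 1.29% of all genes tested were as fully lower, although WT replicate 4 was close to the WWP2-/- range. The means were 29.7 ± 26.7 and 0.321 ± 0.0411 CPM (SD, n = 5), a log2 fold change of -6.52 ± 1.12 with an adjusted P of 0.0214. With TGFβ1 the WT libraries had 9.40, 18.5, 3.33, 35.8 and 12.5 CPM. The WWP2-/- libraries had 0.168, 0.449, 5.87, 0.575 and 0.696 CPM, so that replicate 3 alone reached the WT range. The log2 fold change was -3.36 ± 0.96 with an adjusted P of 0.0448.

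Col8a1, which encodes the other chain, was far more abundant. It was at 1176, 939, 1418, 178 and 1505 CPM in untreated WT and at 349, 237, 63.9, 507 and 586 CPM in untreated WWP2-/- libraries. With TGFβ1 it was at 1479, 1791, 741, 1419 and 1778 CPM in WT and at 112, 572, 1011, 311 and 289.7 CPM in WWP2-/- libraries. With TGFβ1, 4 of 5 WWP2-/- libraries lay under the WT range, and without it all WT libraries other than replicate 4 lay above the WWP2-/- range. The log2 fold changes of -1.65 ± 0.60 with TGFβ1 and -1.58 ± 0.60 without did not pass (adjusted P = 0.101 and 0.238).

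The ratio of Col8a1 to Col8a2 per kb had a median of 27.8 in untreated WT and 669.5 in untreated WWP2-/- libraries, and all 5 WWP2-/- libraries were above all 5 WT libraries. The log2 difference was 3.996, with an exact two-sided permutation P of 0.00794, the smallest that 5 against 5 can give, and an adjusted P of 0.158. With TGFβ1 the medians were 81.4 and 310.4, the log2 difference 2.15 and the exact permutation P 0.0159 (adjusted P = 0.158), so neither passed after adjustment.

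**Figure D3:**
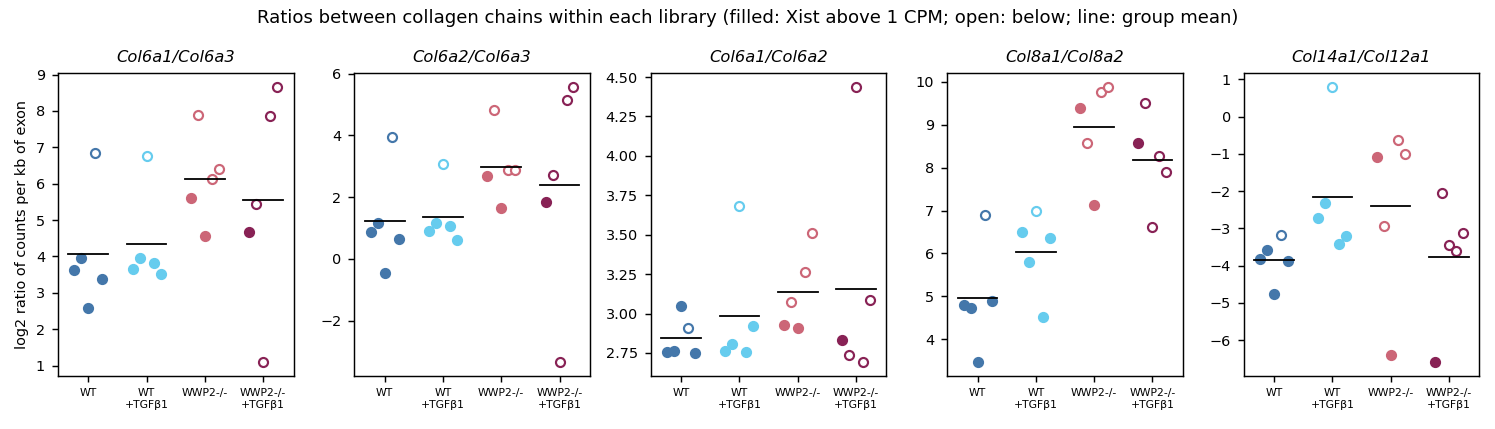
Log2 ratio of counts per kb of exon between pairs of chains in each library, by group, with the group mean as a line and filled points for libraries with Xist above 1 CPM. The Col8a1/Col8a2 ratio had means of 4.95 in untreated WT and 8.95 in untreated WWP2-/- libraries, whereas Col6a1/Col6a2 had group means between 2.85 and 3.16.

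Col10a1, whose product belongs to hypertrophic cartilage, was scarce and scattered. In untreated WT it was at 2.08, 2.25, 1.33, 7.45 and 0.998 CPM and in untreated WWP2-/- at 10.9, 4.72, 0.222, 16.2 and 19.3 CPM. With TGFβ1 it was at 12.8, 0.461, 64.9, 0.505 and 0.837 CPM in WT and at 0.354, 11.2, 113, 4.67 and 2.75 CPM in WWP2-/- libraries. The highest library held most of each treated group's sum. The log2 fold changes were 0.73 ± 1.38 with TGFβ1 (adjusted P = 0.794) and 1.86 ± 1.42 without (adjusted P = 0.553), and the former was -1.75 without TGFβ1-treated WWP2-/- replicate 3 and 2.85 without TGFβ1-treated WT replicate 3. Col10a1 shares 18 exonic bases with Nt5dc1 on the opposite strand, and the strand setting of the counting is not given in the sources used here.

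Col12a1, a FACIT collagen of fibril surfaces in tendon, ligament and injured tissue, was the most abundant of the 10 in WT cells. In TGFβ1-treated WT libraries it was at 4043, 3508, 425, 3738 and 5760.0 CPM. In TGFβ1-treated WWP2-/- libraries it was at 340.3, 377, 826, 109 and 126 CPM. Only replicate 3 of each group reached into the other's range. The means were 3495 ± 1931 and 356 ± 289.6 CPM (SD, n = 5), a log2 fold change of -3.30 ± 0.80 with an adjusted P of 0.0237. In untreated cells Col12a1 was at 4014, 2752, 4905, 144 and 5250.0 CPM in WT and at 399, 139, 224, 479.9 and 658 CPM in WWP2-/- libraries. The log2 fold change was -3.17 ± 0.80, close to that in treated cells, with an adjusted P of 0.0799.

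Col14a1 encodes a FACIT collagen that coats fibrils and limits their growth in width. It separated the TGFβ1-treated groups completely, as did 3.08% of all genes tested in that direction. It was at 284, 325, 339.6, 159.6 and 288 CPM in TGFβ1-treated WT and at 1.63, 41.7, 35.1, 4.12 and 6.68 CPM in TGFβ1-treated WWP2-/- libraries. The lowest WT library was thus above the highest WWP2-/- library, and the log2 fold change was -3.97 ± 1.09 with an adjusted P of 0.0379. In untreated cells Col14a1 did not separate the genotypes. WT libraries had 131, 105, 82.5, 7.39 and 165 CPM and WWP2-/- libraries had 86.0, 8.37, 1.23, 143 and 151, and the log2 fold change was -0.33 ± 0.97 with a 95% interval from -2.36 to 1.69 (adjusted P = 0.890). The difference between these genotype effects, tested as the interaction of genotype and TGFβ1, was -3.64 ± 1.41 with an unadjusted P of 0.0185 and an adjusted P of 0.581.

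Col16a1, a minor FACIT component found with collagen fibrils and fibrillin microfibrils, varied least within groups. It was at 148, 185, 114, 147 and 168 CPM in TGFβ1-treated WT and at 80.9, 77.6, 142, 47.2 and 56.3 CPM in TGFβ1-treated WWP2-/- libraries. Of the latter, 4 lay under the WT range, and the log2 fold change of -0.92 ± 0.29 had an adjusted P of 0.0670. In untreated cells it was -0.79 ± 0.29 (adjusted P = 0.225), with 102, 98.5, 202, 59.4 and 118 CPM in WT and 67.0, 47.1, 80.2, 70.3 and 69.6 CPM in WWP2-/- libraries.

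Col7a1, the anchoring fibril collagen, was 1 of 2 members, with Col10a1, whose fitted genotype difference with TGFβ1 was above 0. It was at 13.9, 14.2, 12.5, 36.0 and 14.7 CPM in untreated WT and at 16.8, 17.6, 20.4, 14.4 and 16.3 CPM in untreated WWP2-/- libraries, a log2 fold change of -0.10 ± 0.50 (adjusted P = 0.942). With TGFβ1 it was at 15.1, 16.7, 35.2, 14.3 and 14.2 CPM in WT and at 11.2, 23.0, 133, 25.5 and 26.8 CPM in WWP2-/- libraries. The log2 fold change of 1.203 ± 0.51 did not pass (adjusted P = 0.154) and was 0.17 without TGFβ1-treated WWP2-/- replicate 3. The libraries high in Col7a1, namely WT replicate 4 and replicate 3 of both treated groups, also held the highest Col10a1 of their groups.

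TGFβ1 itself changed no member by the adjusted test in either genotype, and no gene of the 20407 (0%) by edgeR in TGFβ1-treated against untreated WT, in TGFβ1-treated against untreated WWP2-/-, or in the interaction. At an unadjusted P below 0.05 there were 1397 (6.85%), 713 (3.49%) and 1424 (6.98%) genes, of which 0, 3 and 2 were members, and the Wald test of DESeq2 called 27, 44 and 10 genes, none of them a member. The 3 members in WWP2-/- cells were Col8a2 (log2 fold change 2.25 ± 0.95), Col7a1 (1.36 ± 0.51) and Col14a1 (-2.13 ± 1.01). In WT cells Col14a1 had a mean of 279 ± 71.0 CPM with TGFβ1 and 98.3 ± 59.3 CPM without, a log2 fold change of 1.51 ± 0.99 (adjusted P = 0.864), with 4 of 5 treated libraries above every untreated one. Without both WT libraries that lack Xist it was 1.09 (adjusted P = 0.997), and the interaction -3.20 (adjusted P = 0.657). WT replicate 3 held Xist untreated and lacked it with TGFβ1, and WT replicate 4 the reverse, so whether these libraries were exchanged between treatments cannot be told from the labels. Col14a1 was at 7.39 and 339.6 CPM in the 2 libraries that lack it. These comparisons share their treated or untreated groups with the genotype comparisons.

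The genotype differences were then read within libraries alike in Xist. With Xist, the TGFβ1-treated WWP2-/- library was below all 4 WT libraries for 10 of 10 members, as for 31.9% of all genes. The median difference of the members was -3.60 on the log2 scale, and that of all genes -0.005. That library was also 1 of the 2 with low Acta2. Without Xist, the 4 TGFβ1-treated WWP2-/- libraries differed from the single WT library by a median of -0.63, below 0 for 6 of 10 members and for 47.8% of all genes. In that comparison Col14a1 was at 4.12 to 41.7 CPM against 339.6, a log2 difference of -4.58, whereas Col6a1 differed by 0.07 and Col6a2 by 0.52. In untreated cells the medians were -2.53 with Xist (2 WWP2-/- against 4 WT libraries) and 0.58 without (3 against 1). Those 2 WWP2-/- libraries were replicate 3, which had low Acta2, and replicate 1. Replicate 1 had Xist at 33.65 CPM, against 107.9 to 291.3 CPM in the other untreated libraries with Xist. Col8a2 was lower in WWP2-/- cells by -6.68 with Xist and by -1.21 without, while Col12a1 differed by -3.78 and 1.29. With Xist as a covariate no member passed, and the treated log2 fold changes were -4.89 for Col14a1 (adjusted P = 0.0579), -2.93 for Col8a2 (0.265), -2.33 for Col12a1 (0.250), -2.01 for Col6a1 (0.171) and -1.75 for Col6a2 (0.309). With TGFβ1, without both WT libraries that lack Xist, 9 of 10 members passed, 8 lower and Col7a1 higher (1.55, adjusted P = 0.0458), where 16.2% of all genes passed. Without both WWP2-/- libraries of low Acta2, the same 5 members passed with TGFβ1 as in the full set, where 16.9% of all genes passed instead of 6.07%. In untreated cells that fit called Col8a2 alone of the members (-6.48, adjusted P = 0.0306), where 1.32% of all genes passed instead of 0.725%.

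Each of the 5 calls with TGFβ1 was also lost when single libraries were left out. The count of members called fell to 0 without TGFβ1-treated WT replicate 2 or 5 or TGFβ1-treated WWP2-/- replicate 4 or 5, and rose to 7 without replicate 3 of either treated group. The share of all genes called was 2.27% to 3.21% in the former fits. It was 13.2% without TGFβ1-treated WT replicate 3 and 5.98% without TGFβ1-treated WWP2-/- replicate 3, beside 6.07% with all libraries. The call of Col8a2 in untreated cells did not survive leaving out any of WT replicates 3 and 5 and WWP2-/- replicates 1, 4 and 5. In each of those fits 0.0049% of all genes passed. The log2 fold change of Col8a2 stayed between -6.83 and -5.89.

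**Figure D4:**
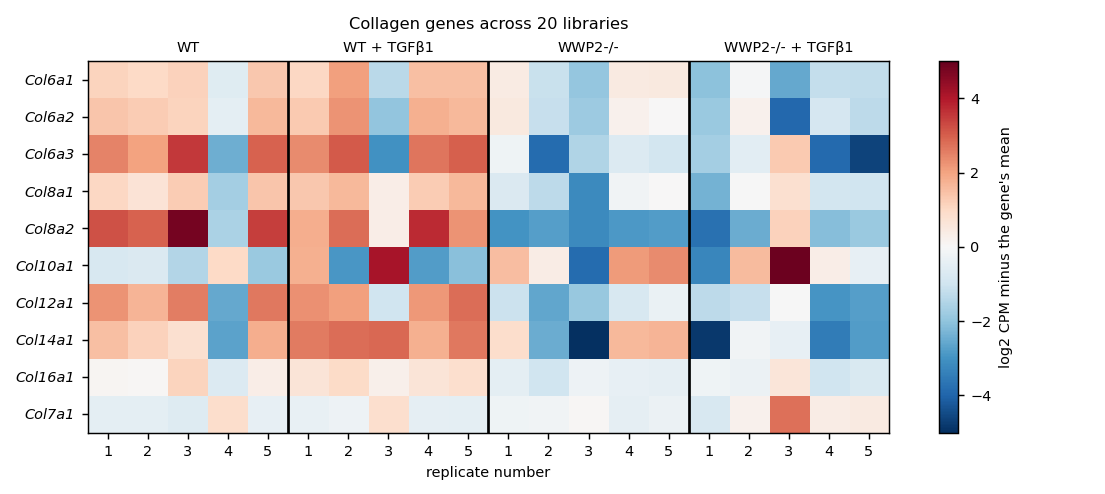
Log2 CPM of each gene minus its mean over 20 libraries, with libraries in columns by group and replicate, red above and blue below the mean, and colours ending at 5 in both directions. WT replicate 4 and TGFβ1-treated WT replicate 3 were low in Col6a3 and Col12a1, unlike the other WT libraries, and TGFβ1-treated WWP2-/- replicate 3 was high in Col10a1 and Col7a1.

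The members varied widely between libraries of 1 group. Their pooled within-group SD of log2 CPM was between 0.481 (Col16a1) and 2.58 (Col10a1), against a median of 0.314 over 13519 genes with a mean of at least 1 CPM. For Col10a1, 1.15% of those genes had a larger SD, and for Col6a3 2.02%.

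Markers of other cell types also differed in level between the groups. All 8 macrophage markers had higher fitted means in TGFβ1-treated WWP2-/- than in WT cells (median log2 fold change 2.52), with 8 at an unadjusted P below 0.05 and none passing the adjusted test, and their summed level was 70.1 to 3413 CPM in the former and 60.1 to 421 CPM in the latter. The 8 measured tubule markers were likewise above 0 in fold change with 0 passing, and their sums were 12.3 to 567 and 42.2 to 212 CPM, with Slc34a1 and Umod too low to be tested. Endothelial markers summed to 10.7 to 186 and 17.9 to 196 CPM, pericyte and mesangial markers to 28.9 to 161 and 83.4 to 122 CPM, and cartilage and tendon markers to 59.2 to 117 and 22.5 to 60.7 CPM, with Acan, Matn1 and Hapln1 too low to be tested. Of these lists, Kdr, Itga8, Matn3 and Tnmd passed, all lower, with Matn3 above 1 CPM in 2 libraries. Of the 8 endothelial markers, however, 7 had fold changes above 0 (median 0.71). The same held for 3 of 5 measured cartilage and tendon markers (median 0.93). Of 6 measured pericyte and mesangial markers, 4 were below 0 (median -0.59). Fibroblast markers summed to 1988 to 4076 and 3719 to 4736 CPM, sums in which Vim was the largest part. Of the 10 fibroblast markers 9 had fold changes below 0, with a median of -2.47 beside -2.49 for the collagens, 6 had an unadjusted P below 0.05, and Fap and Fbln1 passed (-5.96 and -3.29). In untreated cells the 8 macrophage markers were all below 0 in fold change (median -0.84, none at an unadjusted P below 0.05). Their summed level was 149 to 3852 CPM in untreated WT and 74.6 to 1700 CPM in untreated WWP2-/- libraries. WT replicate 4 held the 3852 CPM, the highest of the 20 libraries, against 149 to 1099 CPM in the other untreated WT libraries. That replicate also had the lowest fibroblast marker sum of untreated WT, 2692 CPM. The tubule markers had a median of -0.35 in untreated cells. With TGFβ1 in WT cells the macrophage markers had a median of -2.47, and in the interaction 3.33, each with 8 of 8 at an unadjusted P below 0.05. The part of these cell types in the collagen differences was not tested.

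Related matrix genes with TGFβ1 were counted from fixed lists. Of 11 fibrillar collagen genes 4 were lower and 1 was higher: Col24a1 (-4.34), Col1a2 (-2.63) and Col1a1 (-1.98), which encode chains of fibril-forming collagens, were among the lower, and Col5a3 (2.46) was the higher. Of 5 measured relatives of collagen VI and the FACIT group, Col6a4 (-1.93) and Col9a2 (-1.99) were lower. Of 10 genes that process collagen, P4ha3 (-2.22) and P4ha2 (-0.98), prolyl hydroxylase subunits, and Serpinh1 (-0.99), the collagen chaperone, were lower. Of 10 bridging proteins the fibril-binding proteoglycan Fmod (-3.31) and the matrilin Matn4 (-2.74) were lower. None of 8 basement membrane genes and none of 10 receptor genes passed. Of 10 genes known to respond to TGFβ1, 1 was higher and 1 was lower, the latter Postn, a matricellular protein (-2.44). Of the 10, 7 had fold changes above 0, and the median was 0.42. In untreated cells Col24a1 (-4.01), Col5a2 (-1.74) and Col27a1 (-1.68) of the fibrillar list passed, with the bridging gene Matn4 (-3.40) and the receptor gene Antxr2 (-0.34), all lower, and none of the other genes on these lists apart from Tnmd (-6.68).

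The genes closest in profile were found by the root mean square difference of centred log2 CPM over 20 libraries, among 13497 genes with a mean of at least 1 CPM that were not members. This difference was not scaled to a member's SD of log2 CPM over the libraries, so it tends to be smaller for members that vary less. That SD was 0.651 for Col16a1, 0.801 for Col7a1, 1.401 for Col8a1 and 2.08 for Col12a1. The closest were Fstl1 (0.209) for Col16a1, Whrn (0.260) for Col7a1, Dkk2 (0.352) for Col8a1 and Lama2 (0.381) for Col12a1. The others were Clca3a1 (0.515) for Col6a1, Hspb7 (0.590) for Col6a3, Abi3bp (0.603) for Col6a2, Col2a1 (0.758) for Col10a1, Nkd1 (0.925) for Col8a2 and Adra1d (1.10) for Col14a1. The second closest were Adamts5 for Col6a1, Nid2 for Col6a2, Cygb for Col6a3, Lbh for Col8a1, Pi16 for Col8a2, Nebl for Col10a1, Cpz for Col12a1, Loxl3 for Col16a1 and Arhgef19 for Col7a1.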

How the data were processed

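The authors prepared poly-A libraries of myofibroblasts, used STAR to map paired reads onto GRCm38 and featureCounts to assign them to exons of genes. The deposited values are raw counts per gene, and all 20 columns were assigned from the labels. The 20407 of 51826 genes that had 5 or more counts in 5 or more libraries were normalized by TMM and fitted in 4 groups with the quasi-likelihood test of edgeR 4.0.16 in R 4.3.3, with Benjamini-Hochberg adjustment over all genes tested and a threshold of 0.05. The Wald test of DESeq2 1.42.0, which the study used, was an alternative. Totals of 47520759 to 73063697 counts per library make a count of 0 compatible with up to 0.0613 CPM, for counting error only. The labels do not say that libraries came from separate animals, so P values measure the spread between these libraries.

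Chain ratios were compared by exact two-sided permutation over all arrangements of 5 against 5, adjusted over 20 tests. Log2 CPM used a prior count of 2. Exon lengths and positions came from GENCODE M21 on GRCm38, which is not the release the authors used, and names of 51633 genes from a reference table. A length was the union of all annotated exons of a gene, which can exceed that of its transcripts, so levels per kb depend on it. RefSeq promoter windows were matched for 8 of the 10 members, and Col12a1 and Col14a1 had no entry.

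All 10 members are named, with Wwp2, Xist and Acta2 as checks. List genes are named for up to 4 of the largest changes passing the test, and 2 genes for each member are named by likeness, apart from genes that are not reported here. The members and lists were chosen with earlier results of these data known. Alternatives were the size factors of DESeq2, 2 other filters, a replicate block, log2 CPM of Xist as covariate, a fit of only the groups compared, each library left out and ratios of group means. Leaving out pairs of libraries was chosen after seeing the data. The Xist covariate was first fitted as log2 of CPM plus 0.1 and, after that fit was seen, put on the log2 CPM scale used elsewhere, and both forms are reported. The scripts were tested on simulated data. Measurements of the study other than these libraries were not analysed here.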

Additional observations from a re-analysis of the deposited data

Results flagged for a closer look

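In groups of 5 libraries, 60 combinations of a gene or ratio with a group were examined for a library far from the others by Dixon's criterion, and 13 met it. Genes were examined on unlogged CPM and ratios on the log2 scale. The rate of about 1 in 20 by chance holds for independent, normally spread values, so it cannot be set beside these 13. Low libraries stand out little in unlogged CPM. Col6a3 in TGFβ1-treated WT replicate 3, at 0.519 CPM with the nearest other at 23.0, did not meet the criterion. Values are CPM with the nearest other library of the group in brackets.

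TGFβ1-treated WWP2-/- replicate 3 stood above its group in Col6a3 at 11.1 (3.06), Col8a2 at 5.87 (0.696), Col10a1 at 113 (11.2) and Col7a1 at 133 (26.8). Its ratio of Col6a1 to Col6a2 per kb was 21.7 (8.51).

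WT replicate 4, without Xist, was high in Col10a1 at 7.45 (2.25) and in Col7a1 at 36 (14.7). TGFβ1-treated WT replicate 3, the other WT library without Xist, was high in the same genes, with Col10a1 at 64.9 (12.7) and Col7a1 at 35.2 (16.7). In ratios per kb it had 108 for Col6a1 to Col6a3 (15.6), 8.4 for Col6a2 to Col6a3 (2.22), 12.8 for Col6a1 to Col6a2 (7.57) and 1.73 for Col14a1 to Col12a1 (0.201).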

How the results depend on the processing

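The count of members called moved most. With TGFβ1 it was 5, and it became 2 with no filter on low counts and with only the groups compared, 8 by the Wald test of DESeq2, 9 without the WT libraries that lack Xist, and 0 with Xist as a covariate, also with a pseudocount of 0.1 CPM, the form fitted first. The calls over all genes moved too, from 1238 to 790 with no filter. Their share went from 6.07% to 2.79% with only the groups compared, 13.1% by the Wald test and 16.2% without those WT libraries. With Xist as a covariate it was 2.67%, or 2.56% in the first form. Leaving out 1 library gave 0 to 7, with 0 without TGFβ1-treated WT replicate 2 or 5 or TGFβ1-treated WWP2-/- replicate 4 or 5. It was 2 or 3 without untreated WT replicate 1, 2 or 5, untreated WWP2-/- replicate 1, 4 or 5, TGFβ1-treated WT replicate 1 or 4, or TGFβ1-treated WWP2-/- replicate 1 or 2. Over all genes, leaving out 1 library gave 2.27% to 13.2%, with 2.27% to 3.21% where no member was called. Untreated, the count of members called was 1, and it became 0 with only the groups compared, with Xist as a covariate in either form and with the replicate block, 3 by the Wald test and 4 without the WT libraries that lack Xist. The share of all genes went from 0.725% to 0.0049% with only the groups compared and with the block. It was 0.412% or 0.397% with the covariate, 3.66% by the Wald test and 5.41% without those WT libraries. Leaving out 1 library gave 0 to 2 members, with 0 when the library was WT 3, WT 5, WWP2-/- 1, WWP2-/- 4 or WWP2-/- 5, and 2 when it was WT 4 or TGFβ1-treated WT 3. Of all genes, 0.0049% were called in each of the former fits, and 3.65% and 1.4% in the latter. With TGFβ1 the replicate block called 4 members, Col6a1, Col6a2 and Col8a2 of the 5 and also Col16a1 (adjusted P = 0.0475), while Col12a1 (0.0576) and Col14a1 (0.0813) were no longer called. It called 3.28% of all genes. Same-numbered libraries correlated between -0.52 and 0.44 in their deviations. Between untreated WT and WWP2-/-, replicates 1, 2 and 3 matched their own number best (0.204, 0.25 and 0.443), and replicates 4 and 5 did not. In the other group pairs, only replicate 1 of WT with and without TGFβ1 did so. The numbers were taken as names and not as pairs, which these values do not settle for the untreated genotype comparison. There the block gave Col8a2 an adjusted P of 0.0939. For the ratio of Col8a1 to Col8a2 in TGFβ1-treated against untreated WWP2-/- libraries, group means gave -1.88 instead of -0.77. The cause of these changes was not tested.

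None of the values that changed sign passed the adjusted test. With the replicate block these were TGFβ1 in WT for Col6a1 (-0.01), Col6a2 (-0.18), Col6a3 (0.50) and Col7a1 (-0.07), TGFβ1 in WWP2-/- for Col10a1 (-0.56) and Col6a3 (-0.15), the interaction for Col6a3 (-0.65) and the untreated genotype difference for Col14a1 (0.01). With Xist as a covariate these were Col10a1 in the treated genotype comparison (-1.36, or -1.12 with a pseudocount of 0.1) and in WWP2-/- with TGFβ1 (-0.23), and Col12a1 in the latter (0.06 or 0.04) and in the interaction (0.01). Without the WT libraries that lack Xist these were Col7a1 untreated (0.25), Col12a1 with TGFβ1 in WT (-0.02), and the interaction for Col10a1 (0.27), Col16a1 (0.01) and Col8a1 (0.08).

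Leaving out 1 library turned some signs. For TGFβ1 in WT the ranges were -0.28 to 0.32 for Col12a1, -0.38 to 0.33 for Col6a3 and -0.28 to 0.47 for Col7a1. For TGFβ1 in WWP2-/- they were -1.11 to 1.71 for Col10a1, -0.67 to 0.20 for Col12a1, -0.02 to 0.42 for Col16a1, -0.83 to 0.88 for Col6a3 and -0.12 to 0.67 for Col8a1. For the interaction they were -3.60 to 0.99 for Col10a1, -0.70 to 0.18 for Col12a1, -0.41 to 0.04 for Col16a1, -0.76 to 0.94 for Col6a3 and -0.58 to 0.21 for Col8a1. Between genotypes they were -1.75 to 2.85 for Col10a1 with TGFβ1 and -0.23 to 0.31 for Col7a1 untreated. For log2 ratios with TGFβ1 in WT they were -0.034 to 0.198 for Col6a1 to Col6a2, -0.339 to 0.958 for Col6a1 to Col6a3 and -0.305 to 0.803 for Col6a2 to Col6a3. In WWP2-/- these were -0.300 to 0.136, -1.35 to 0.541 and -1.39 to 0.841, and between treated genotypes Col6a1 to Col6a2 ranged from -0.148 to 0.346.

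The smallest count of any member in a library was 10, so levels under 1 CPM rest on few reads.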
